A study of Labrus bergylta with 24 samples.

Results

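The hindgut of the ballan wrasse (Labrus bergylta) was described through its 100 most abundant transcripts, chosen out of 20751 transcript features. They were chosen by their measured values: the 100 features with the highest mean deposited value over the 6 fish on the Control diet. The ballan wrasse is a stomachless marine fish that is kept in salmon farms to eat sea lice, and its hindgut is the last stretch of a short intestine. RNA sequencing was run on 24 fish, 6 on each of 4 diets. Combined fish ate the reference feed with 0.7% soyasaponin and 0.4% of a commercial prebiotic (Aquate SG). Soyasaponin fish ate the reference feed with 0.7% soyasaponin, Prebiotic fish ate it with 0.4% of the prebiotic, and Control fish ate the reference feed alone. All 24 fish had been kept on the reference feed for 4 weeks, and the test diets then lasted 5 weeks. The labels give no age, strain or genotype. Each diet was given in 2 tanks and no fish is tied to a tank, so diet and tank cannot be told apart, and the p-values below take fish on the same diet to be independent of each other.

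Intestinal messenger RNA is unevenly divided: a small number of transcripts, mostly those for abundant structural, metabolic and protein-making products, take up a large part of the reads, and the many others share the remainder. The fish hindgut absorbs nutrients and also carries much of the intestinal immune defence. Soyasaponins are soap-like plant compounds of soybean, known in Atlantic salmon for their part in inflammation of the distal intestine, and prebiotics are feed additives meant to favour useful gut microbes. The transcripts are known here by identifier alone: 0 of the 20751 identifiers matched the gene table that was at hand, so no role can be given to any of them, the hindgut label could not be checked against marker genes, and no sequence is shown. In what follows, rank 1 to rank 100 is the place of a transcript by its mean over the 6 Control fish. Ranks compare read counts that were not divided by transcript length, so they order transcripts by reads, not by molecules.

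Values are normalized counts, that is, read counts that the authors divided by a scaling factor per library. The factors lay between 0.803 and 1.42 and the reads behind them between 8.42 M and 12.5 M (mega) per fish. After this scaling the 6 Prebiotic fish had totals of 9.94 M to 11.3 M, above the 8.47 M to 9.82 M of the other 18 fish. Prebiotic replicates 4 and 5 had the lowest median correlations with the other libraries, 0.853 and 0.839, against 0.895 or more in the 18 fish on the other diets. At least 1000 reads stood behind 97 of the 100 transcripts in all 24 fish. At 1000 reads, counting error alone is 6.20% either way (95% interval).

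Abundance dropped steeply along the list. In Control fish the mean normalized count was 303853 at rank 1, 41313 at rank 10, 26808 at rank 20, 14478 at rank 50 and 8674 at rank 100. The lower edge of the list is not a natural break. LABE_00001223-RA, at rank 100, had 8674 ± 1850 normalized counts in Control fish (SD, n = 6), between 7206 and 12250. LABE_00007161-RA, the first transcript left out, had 8595 ± 1788, between 7017 and 11943. Choosing by the Control median in place of the mean would have kept 93 of the 100, and choosing by the mean over the 18 fish on the other diets would have kept 92.

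**Figure D1:**
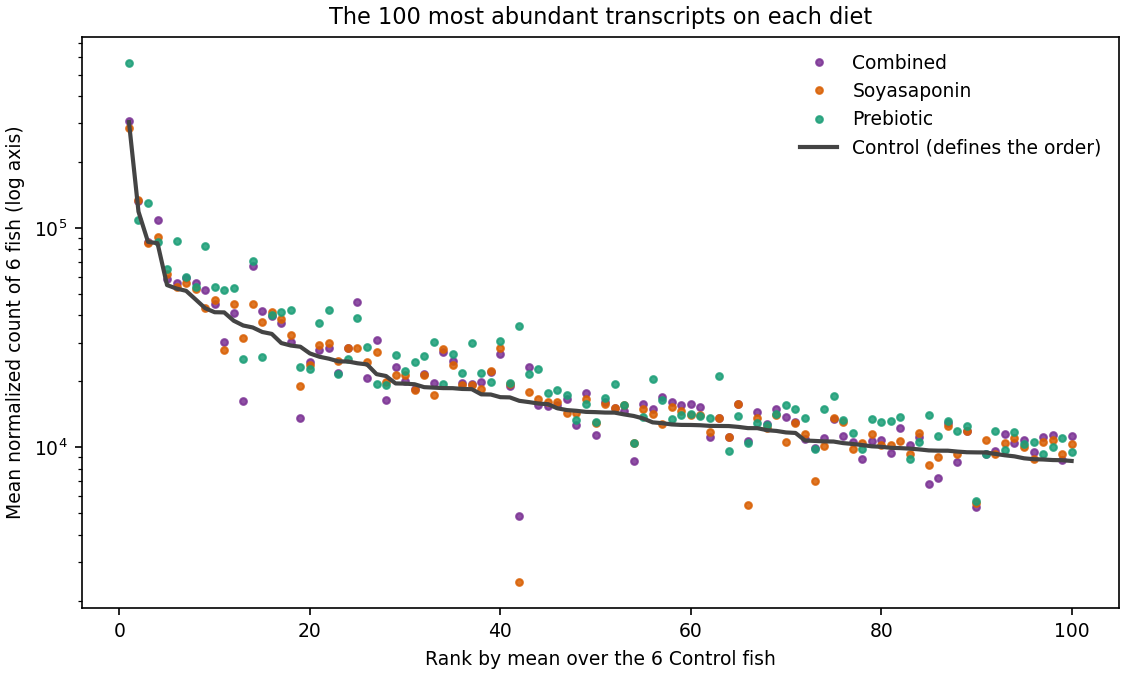
Mean normalized count of 6 fish (vertical log axis) of the 100 transcripts against their rank in Control fish (horizontal axis), with the Control mean as a line and the other diets as points. The line drops from 303853 at rank 1 to 8674 at rank 100. The Prebiotic point at rank 1 lies at 566611, and at rank 42 the Combined and Soyasaponin points lie far below the line.

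The 100 transcripts held between 22.7% and 32.1% of all normalized counts of a fish. Their share averaged 26.8% ± 0.914 in Combined fish, 26.3% ± 1.95 in Soyasaponin fish, 29.3% ± 2.25 in Prebiotic fish and 26.1% ± 2.22 in Control fish (mean and SD of 6 fish each). The ranges of the 4 diets overlapped. As these are whole pieces of tissue, fewer cells of a type and less RNA per cell cannot be told apart in any of these values. Since the transcripts were chosen for high values in Control fish, their shares are given without a test.

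Rank 1 alone made up most of the distance between Prebiotic fish and the others. LABE_00033481-RA held 3.26% ± 0.475 of the counts in Combined fish, 3.05% ± 0.861 in Soyasaponin fish, 5.44% ± 1.03 in Prebiotic fish and 3.35% ± 1.48 in Control fish. The other 99 transcripts together held 23.5% ± 0.596 in Combined fish, 23.2% ± 1.18 in Soyasaponin fish, 23.9% ± 1.48 in Prebiotic fish and 22.7% ± 0.933 in Control fish. Of the 3.25 percentage points between the Prebiotic and Control means, 2.08 points were rank 1 and 1.17 points the other 99. Between the Prebiotic and Soyasaponin means, 2.39 of 3.05 points were rank 1. Between Combined and Prebiotic means, which lay 2.50 points apart with Prebiotic higher, rank 1 was 2.18 points and the other 99 were 0.326 points.

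**Figure D2:**
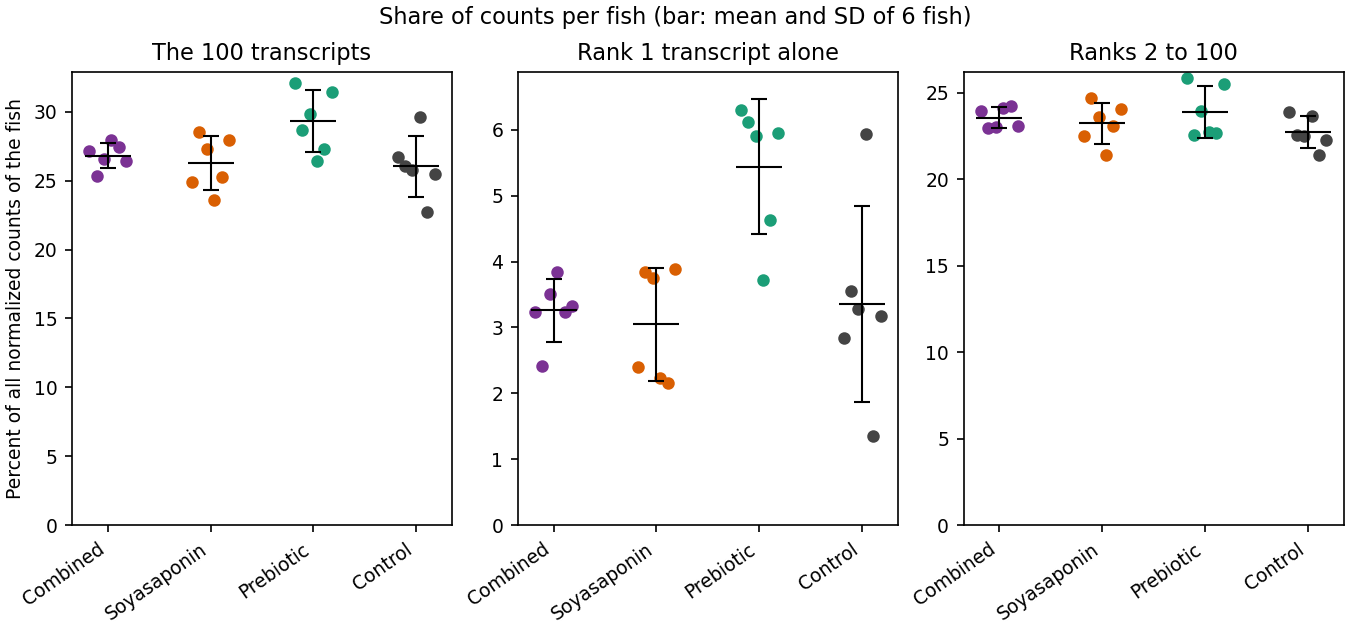
Percent of all normalized counts of each fish (vertical axis) held by the 100 transcripts, by rank 1 alone and by ranks 2 to 100, one point per fish, with the mean and SD of 6 fish per diet. Rank 1 averages 5.44% in Prebiotic fish against 3.35% in Control fish, while ranks 2 to 100 average between 22.7% and 23.9% on all 4 diets.

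A measure that does not lean on the Control ranking is the share held by each fish's own 100 most abundant features, of which 72 to 91 per fish were among the 100 transcripts described here. This share was 27.4% ± 0.805 in Combined fish and 30.6% ± 1.78 in Prebiotic fish. The difference of -3.22 points passed an exact two-sided permutation test (p = 0.00433, adjusted p = 0.0244 over 15 comparisons), although the diets overlapped. Prebiotic fish, at 30.6%, were also above Control fish, at 26.7% ± 1.99, by 3.90 points (exact permutation p = 0.00649, adjusted p = 0.0244).

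The own top 10 set the same pairs of diets apart. They held 10.7% ± 0.433 of the counts in Combined fish, between 9.87% and 11.0%, against 13.0% ± 1.32 in Prebiotic fish, between 11.2% and 14.9%. No Combined fish reached the lowest Prebiotic fish, and the exact permutation p of 0.00216 is the smallest that 6 fish against 6 allow (difference -2.33 points, adjusted p = 0.0244). Prebiotic fish exceeded Control fish, at 10.3% ± 1.91, by 2.76 points, with overlap (exact permutation p = 0.0195, adjusted p = 0.0487). The own top 500 held 48.1% ± 1.06 in Combined fish and 50.9% ± 1.69 in Prebiotic fish, a difference of -2.77 points (exact permutation, adjusted p = 0.0325). For the own top 500, Prebiotic fish were 4.09 points above Control fish, which stood at 46.8% ± 1.47 (exact permutation, adjusted p = 0.0244). The own lists of each size are nested, so their differences are not separate evidence. All of them hold LABE_00033481-RA (rank 1), which was never below place 2 in a fish. Its share alone was 2.18 points higher in Prebiotic than in Combined fish, and 2.08 points higher than in Control fish. It made up most of both own top 10 differences. The own shares without it were not tested.

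No difference in the concentration of counts passed for the comparisons of Soyasaponin with Control, Combined with Soyasaponin and Combined with Control fish. The own top 100 held 26.8% ± 1.80 in Soyasaponin fish, 0.0830 points above Control fish (exact permutation, adjusted p = 0.946). Combined fish stood 0.594 points above Soyasaponin fish and 0.677 points above Control fish (adjusted p = 0.590 for both, exact permutation). Whether adding soyasaponin changed the own top 100 share differently with and without the prebiotic was examined by permutation. The difference between the 2 effects was -3.30 points, with a permutation p of 0.0581 (adjusted p = 0.0872 over 3 list sizes), which did not pass. Labels were shuffled between Combined and Soyasaponin fish and between Prebiotic and Control fish. That takes the prebiotic to have no effect at all, and the gap between Prebiotic and Control fish widens the shuffled spread. The p therefore cannot decide whether the 2 effects differ. Another way to see the concentration is the number of features that hold 50% of a fish's counts: 567 ± 39.9 in Combined fish, 590 ± 58.4 in Soyasaponin fish, 472 ± 55.6 in Prebiotic fish and 619 ± 55.9 in Control fish. Fewest features were needed in Prebiotic fish, whose highest value, 539, was above the lowest of each of the other diets.

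Leaving out Prebiotic replicates 4 and 5, an alternative chosen after seeing the data, widened both differences of the own top 100 share, to -3.78 points for Combined against Prebiotic fish and 4.46 points for Prebiotic against Control fish. With 4 Prebiotic fish the adjusted p was 0.0571 for each (exact permutation), which no longer passed the threshold of 0.05. Fewer fish allow fewer arrangements, which raises the smallest p that can be reached. The 4 fish left, at 29.5% or more, all lay above the highest Combined fish, at 28.6%. The size of both differences therefore did not rest on replicates 4 and 5. Whether the calls rest on them cannot be shown with fewer arrangements.

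The order of the list was largely kept across diets. Of the 100, 88 were also among the 100 highest means in Combined fish, 93 in Soyasaponin fish and 86 in Prebiotic fish, and 78 were in the top 100 on all 4 diets. Spearman's rho with the Control order, across the 100 transcripts as a description, was 0.893 for Combined, 0.924 for Soyasaponin and 0.921 for Prebiotic fish. Places moved by at most 5 for 35 transcripts in Combined fish, 49 in Soyasaponin fish and 46 in Prebiotic fish. Moves over 25 places were seen for 9, 6 and 10 transcripts in Combined, Soyasaponin and Prebiotic fish. Since the list holds whatever ranked high in Control fish, some of its members had to rank lower elsewhere.

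Of the Control top 10, 9 were in the top 10 on each of the other diets. LABE_00033481-RA was the highest feature in 23 of 24 fish, the exception being Control replicate 5. Over the whole list, 51 transcripts were in the own top 100 of all 24 fish, 70 in that of at least 20 fish and 9 in that of fewer than 12 fish. In all, 197 features were in the own top 100 of some fish.

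The 5 leading transcripts differed in how evenly they were expressed between fish. LABE_00033481-RA (rank 1) had 225960, 306625 and 377636 normalized counts in Combined fish (lowest, median, highest), 199604, 285754 and 379901 in Soyasaponin fish, 386712, 599900 and 666123 in Prebiotic fish, and 114535, 291720 and 567059 in Control fish. All 6 Prebiotic fish lay above all 12 Combined and Soyasaponin fish, and 1 Control fish, replicate 4, lay within the Prebiotic range. The log2 difference between Combined and Prebiotic fish was -0.87 (SE 0.27), which did not pass limma's test over all features (adjusted p = 0.0726). Log2 differences here and below are on the log2(normalized count + 1) scale. With quantile normalization, which gives every fish the same highest value, this difference is 0 by construction.

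LABE_00049735-RA (rank 2) was far more even. Its lowest, median and highest counts were 113023, 137671 and 141282 in Combined fish, 127577, 134097 and 139860 in Soyasaponin fish, 97027, 108301 and 124862 in Prebiotic fish, and 100472, 115246 and 151224 in Control fish. Combined fish were 0.28 above Prebiotic fish on the log2 scale (SE 0.10), which did not pass (limma, adjusted p = 0.129). LABE_00061503-RA (rank 3) had counts of 72215, 87343 and 94393 in Combined fish, 59565, 81729 and 121829 in Soyasaponin fish, 88200, 129752 and 156774 in Prebiotic fish, and 49255, 89037 and 129074 in Control fish. Its Combined to Prebiotic difference was -0.57 (SE 0.21; limma, adjusted p = 0.140), again with overlap.

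LABE_00051334-RA (rank 4) and LABE_00039237-RA (rank 5) overlapped on all 4 diets. For rank 4 the counts were 94186, 112310 and 117869 in Combined fish, 66631, 92371 and 108108 in Soyasaponin fish, 62655, 87429 and 108803 in Prebiotic fish, and 44892, 97640 and 114495 in Control fish. For rank 5 they were 40819, 60024 and 82995 in Combined fish, 47987, 58170 and 84290 in Soyasaponin fish, 39354, 62833 and 98062 in Prebiotic fish, and 33437, 53988 and 85350 in Control fish. Neither differed between Combined and Prebiotic fish by limma's test (adjusted p = 0.361 for rank 4 and 0.788 for rank 5).

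**Figure D3:**
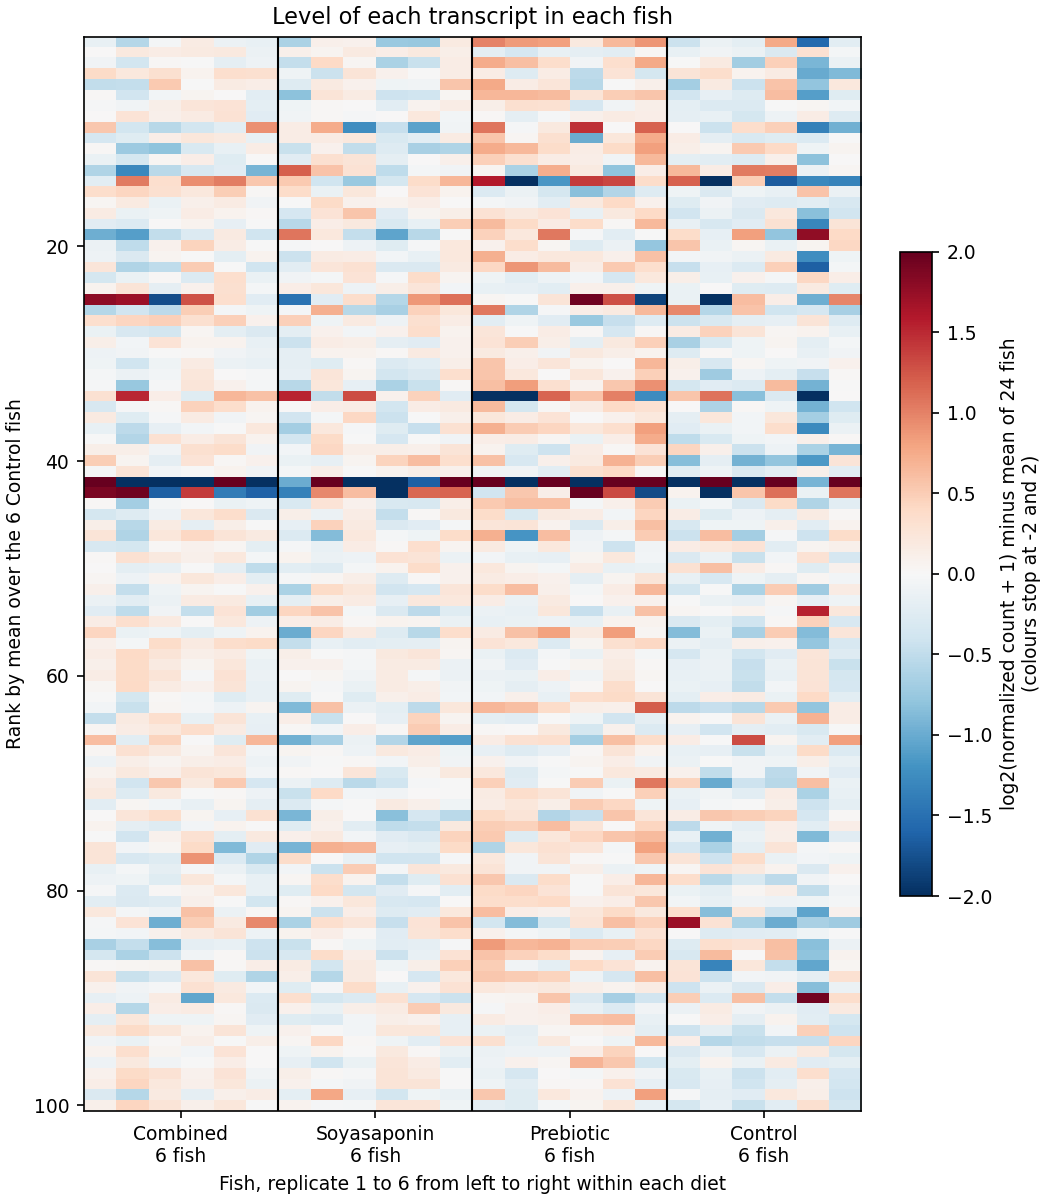
Level of each of the 100 transcripts (rows, by Control rank) in each of 24 fish (columns, by diet), as log2(normalized count + 1) minus the mean of the transcript over 24 fish, with colours stopped at -2 and 2. Most rows stay pale, a few rows such as ranks 14, 25, 42 and 43 swing strongly between fish of the same diet, and Control replicate 5 (second column from the right) departs in many rows.

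Taken as a list, the 100 varied less between fish of a diet than features in general. The within-diet SD of log2 values had a median of 0.261 over the 100, against 0.356 over the 17056 features that averaged 10 or more normalized counts. In the 3 diets that did not choose the list, the medians were 0.226 for the 100 and 0.361 for the 17056. From the lowest to the highest of 24 fish, the median range was 2.33-fold over the 100 and 2.91-fold over the 17056. The range stayed under 2-fold for 35 of the 100, against 23.4% of the 17056, and it exceeded 4-fold for 17 of the 100, against 33.5%. No test was made of these values, since higher counts also carry less counting error. Within the list, ranks 1 to 20 were more variable (median SD 0.361) than ranks 81 to 100 (0.236). Ranks 1 to 20 were no steadier than the 17056 by this SD (0.356) or by their median range of 3.01-fold. In the 3 diets that did not choose the list the gap within it was smaller, with medians of 0.288 and 0.223. There ranks 1 to 20 were below the 0.361 of the 17056.

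The narrowest range belonged to LABE_00025383-RA (rank 68), at 1.22-fold over 24 fish. It had 11489, 13144 and 13676 counts in Combined fish, 11800, 12108 and 13453 in Soyasaponin fish, 11807, 12606 and 13525 in Prebiotic fish, and 11227, 11728 and 13472 in Control fish. All 4 diets covered nearly the same span, and the 95% interval of the Combined minus Prebiotic difference ran from -0.12 to 0.16 (log2). LABE_00062457-RA (rank 53) followed at 1.34-fold, with 12925, 13721 and 16963 counts in Combined fish, 13246, 16493 and 17280 in Soyasaponin fish, 13772, 15873 and 16886 in Prebiotic fish, and 13401, 13931 and 15294 in Control fish.

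At the other end, 5 of the 100 transcripts, at ranks 42, 43, 25, 34 and 14, ranged over 16-fold or more. LABE_00047846-RA (rank 42) was nearly an on or off signal. It had 16456, 64.1, 32.9, 51.9, 12597 and 34.7 normalized counts in the 6 Combined fish and 475, 5431, 148, 8.81, 306 and 8261 in the 6 Soyasaponin fish. The 6 Prebiotic fish had 30727, 50.7, 24520, 51.0, 117176 and 42519, and the 6 Control fish had 27.4, 8441, 14.2, 31370, 495 and 57457. In 11 fish the count was over 5000 and in 13 it was under 500, with no fish between. High fish occurred on every diet: 2 of 6 Combined, 2 of 6 Soyasaponin, 4 of 6 Prebiotic and 3 of 6 Control fish. Its place by diet mean followed these few fish, at 258 in Combined, 591 in Soyasaponin, 20 in Prebiotic and 42 in Control fish. The Combined minus Prebiotic difference of -3.91 (log2) had a 95% interval from -9.02 to 1.19 and did not pass (limma, adjusted p = 0.420).

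None of the other 99 transcripts followed rank 42 closely, taking r over 0.9 as close. Across the 24 fish, 32 features correlated with it at r over 0.9 on the log2 scale, and 0 of them were among the 100. The closest was LABE_00008026-RA (Control rank 241), at r = 0.996. These correlations describe 24 fish that fall into high and low ones, and no test was made of them.

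LABE_00064508-RA (rank 43) and LABE_00064509-RA (rank 25) varied together, at r = 0.910 over 24 fish and 0.923 after diet means were removed. Rank 43 had 4050, 18856 and 48138 counts in Combined fish, 2527, 21792 and 28247 in Soyasaponin fish, 3641, 15922 and 53728 in Prebiotic fish, and 302, 15842 and 26844 in Control fish. Rank 25 had 6994, 44160 and 82715 in Combined fish, 8579, 25571 and 51221 in Soyasaponin fish, 6637, 26620 and 92111 in Prebiotic fish, and 545, 24096 and 47348 in Control fish. Control replicate 2 was the lowest of 24 for both, and the ranges were 178-fold for rank 43 and 169-fold for rank 25. The identifiers of ranks 43 and 25 are consecutive, and reads shared between near-identical copies cannot be told apart here. The transcript at rank 34 ranged over 19.7-fold. Rank 25 did not follow rank 42 (r = -0.0398 after diet means were removed).

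LABE_00008768-RA (rank 14) ranged over 16.0-fold. It had 36259, 70737 and 86869 counts in Combined fish, 25101, 43521 and 66672 in Soyasaponin fish, 7876, 80175 and 126023 in Prebiotic fish, and 9004, 16934 and 95653 in Control fish. In Control fish 4 of 6 were under 20000, as were 2 of 6 Prebiotic fish, while no Combined or Soyasaponin fish was.

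**Figure D4:**
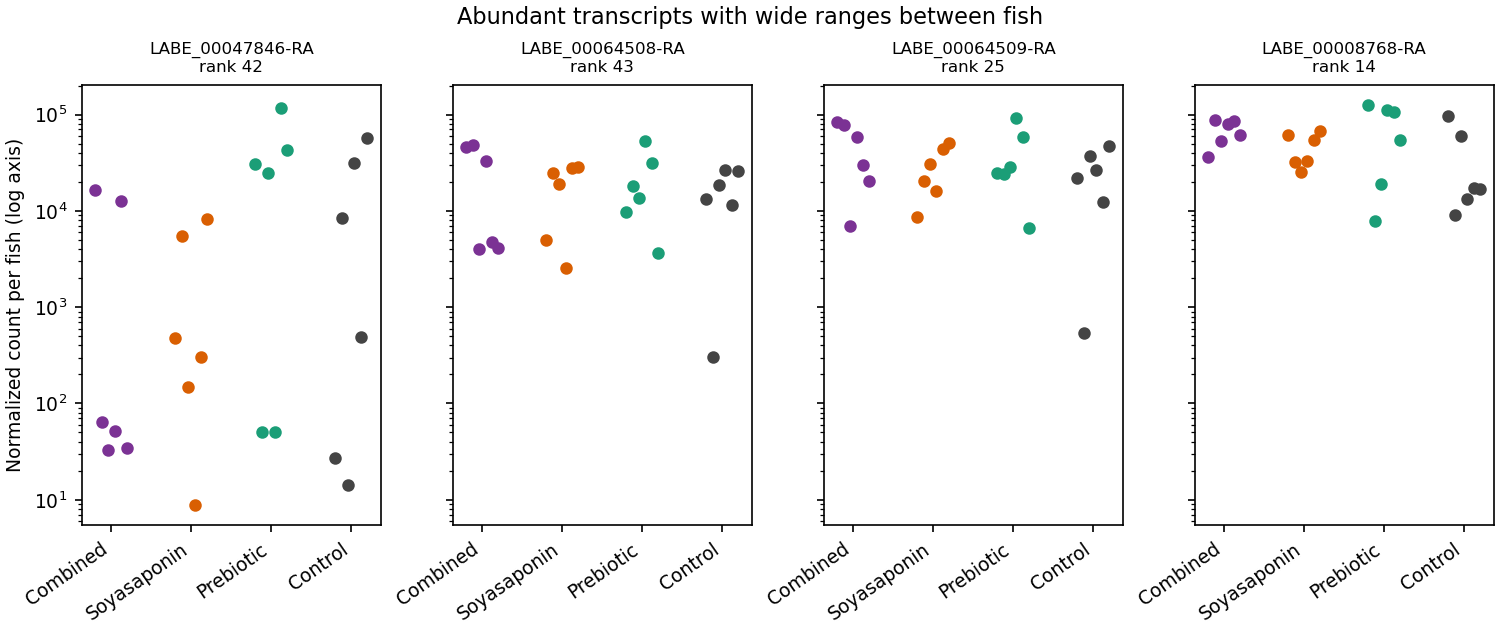
Normalized count per fish (vertical log axis) of the transcripts of ranks 42, 43, 25 and 14, one point per fish, by diet. Rank 42 splits into fish above 5000 and fish below 500 on every diet, and Control replicate 2 is the low point at 302 for rank 43 and 545 for rank 25.

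Many of the 100 varied together from fish to fish within a diet. After diet means were removed, the correlation between 2 transcripts over 24 fish had a median of 0.0610 over 4950 pairs, with 5% of pairs below -0.502 and 5% above 0.705. In 128 pairs it was over 0.8. Average linkage at r of 0.6, applied after the values were seen, gave 37 groups. Of these, 18 were single transcripts and 17 were groups of 2 to 5. The largest, 1 set of 19 transcripts and 1 of 17, are described here without a test. The set of 19 held rank 1 and ranks 3, 5, 6, 12, 17, 18, 21, 22, 33, 36, 37, 44, 52, 63, 71, 85, 86 and 89, with a median r of 0.760 within it. The transcript most like rank 1 was LABE_00042575-RA (rank 6), at r = 0.939. The set of 17 held ranks 8, 16, 24, 41, 49, 55, 58 to 61, 67, 68, 93, 95, 97, 98 and 100, with a median r of 0.787. The lowest r of a pair was 0.420 within the set of 19 and 0.213 within the set of 17. Across the sets, 319 of 323 pairs were negative, with a median r of -0.456. Control replicate 5 held the lowest share of counts of 24 fish in the set of 19 (4.60%) and the highest in the set of 17 (4.01%). Its values also helped to choose the list, and how far these correlations rest on it was not tested.

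The shares of these sets overlapped between diets. The 19 held 8.62% ± 0.991 of the counts in Combined fish, 8.61% ± 1.84 in Soyasaponin fish, 12.1% ± 2.06 in Prebiotic fish and 8.70% ± 2.84 in Control fish, ranging from 4.60% to 13.9% over 24 fish. The lowest Prebiotic fish, at 8.99%, was under the highest fish of each of the other diets. For the 17 the shares were 3.42% ± 0.317 in Combined fish, 3.34% ± 0.279 in Soyasaponin fish, 2.85% ± 0.168 in Prebiotic fish and 3.02% ± 0.521 in Control fish. Here the highest Prebiotic fish, at 3.07%, was above the lowest fish of each of the other diets. Members of a set vary together, so the number of them that share a direction is not separate evidence. Control values also chose the list. All 19 had log2 differences below 0 for Combined minus Prebiotic (median -0.53) and above 0 for Prebiotic minus Control (median 0.56). Of all features, 44.7% were above 0 for Combined minus Prebiotic and 52.8% for Prebiotic minus Control. Under quantile normalization 13 of the 19 were below 0 for Combined minus Prebiotic (median -0.22). For Prebiotic minus Control 16 of the 19 were then above 0 (median 0.23). The 17 were all above 0 for Prebiotic minus Control (median 0.15) but all below 0 under quantile normalization (median -0.20). With each fish scaled to its own total, 1 was above 0 and 16 were below (median -0.08), so their direction depends on the scaling.

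Adding soyasaponin to the prebiotic feed was tested with Combined against Prebiotic fish, none of which chose the list. By limma over 17056 features, 5 of the 100 passed an adjusted p under 0.05, against 3.81% of all features. The 2 that were higher in Combined fish compare with 2.73% of all features, and the 3 that were lower with 1.08%. How the count stands against the background depended on the fit, and nothing is read from it about the list. With only the 18 fish that did not choose the list, 2 were higher and 7 lower (3.42% of all features called), and with the 2 diets alone, 2 were higher and 8 lower (2.88%). DESeq2 on the recovered reads called 3 higher and 12 lower, against 7.56% of its tested features. Quantile normalization gave 6 higher and 1 lower (4.33%), and scaling each fish to its own total 6 higher and 3 lower (8.22%), so the split into higher and lower depends on the scaling. The values of the 5 transcripts come from limma with Benjamini-Hochberg adjustment.

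LABE_00034437-RA (rank 85) fell most among the 5. It had 5081, 6764 and 8256 counts in Combined fish (lowest, median, highest) and 12298, 13877 and 16552 in Prebiotic fish, a log2 difference of -1.06 (SE 0.18, adjusted p = 0.00521). Every Combined fish was below every Prebiotic fish. In Soyasaponin fish it ran from 6778 to 9320 and in Control fish from 5143 to 13974. It belonged to the set of 19 that varied with rank 1.

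LABE_00040711-RA (rank 11) fell as well, with 20536, 30821 and 39847 counts in Combined fish and 40074, 51758 and 63401 in Prebiotic fish (log2 difference -0.82, SE 0.17, adjusted p = 0.00977). The highest Combined fish lay just under the lowest Prebiotic fish. Soyasaponin fish had 22999 to 38375 counts, all below the lowest Prebiotic fish, and Control fish had 33922 to 51820. LABE_00037945-RA (rank 81) was named after its values were seen because it completes the 5. It had 8213, 8934 and 11289 counts in Combined fish and 11138, 13463 and 15233 in Prebiotic fish, with a slight overlap. The log2 difference was -0.48 (SE 0.10; limma, adjusted p = 0.0114). Soyasaponin fish had 8331 to 12319 counts of rank 81, and Control fish had 9499 to 10254. Every Prebiotic fish lay above every Control fish, while the Combined fish overlapped the Control fish.

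Higher in Combined fish were LABE_00038649-RA (rank 15) and LABE_00050764-RA (rank 27). Rank 15 had 34188, 42249 and 47094 counts in Combined fish and 18806, 27035 and 30999 in Prebiotic fish, without overlap (log2 difference 0.71, SE 0.14, adjusted p = 0.00746). Rank 27 had 25737, 31430 and 33608 counts in Combined fish and 14477, 20372 and 22785 in Prebiotic fish, also without overlap (log2 difference 0.69, SE 0.13, adjusted p = 0.00723). Soyasaponin fish overlapped the Combined fish, with 30517 to 43231 counts for rank 15 and 22406 to 33721 for rank 27. Control fish had 27378 to 49631 counts for rank 15 and 17892 to 28896 for rank 27, and replicate 5 was the highest Control fish for both.

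Across the 100, the Combined minus Prebiotic differences had a median of -0.15 (log2), against -0.04 over all 17056 features, with 34 above 0 and 66 below. Quantile normalization turned the median of the 100 to 0.06, but it removes by construction a shift shared by the most abundant features. Scaling each fish to its own total put the median at -0.00412, so no direction of the list as a whole is read from it. Scaling each fish to its total moved the median of all features by 0.14. The groups did not overlap for 2 of the 100 that were higher and 7 that were lower in Combined fish, against 2.18% and 0.78% of all features. Only 3 of the 100 differed by at least 2-fold in either direction, against 5.45% of all features. For 81 of the 100 the 95% interval lay within -1 and 1.

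**Figure D5:**
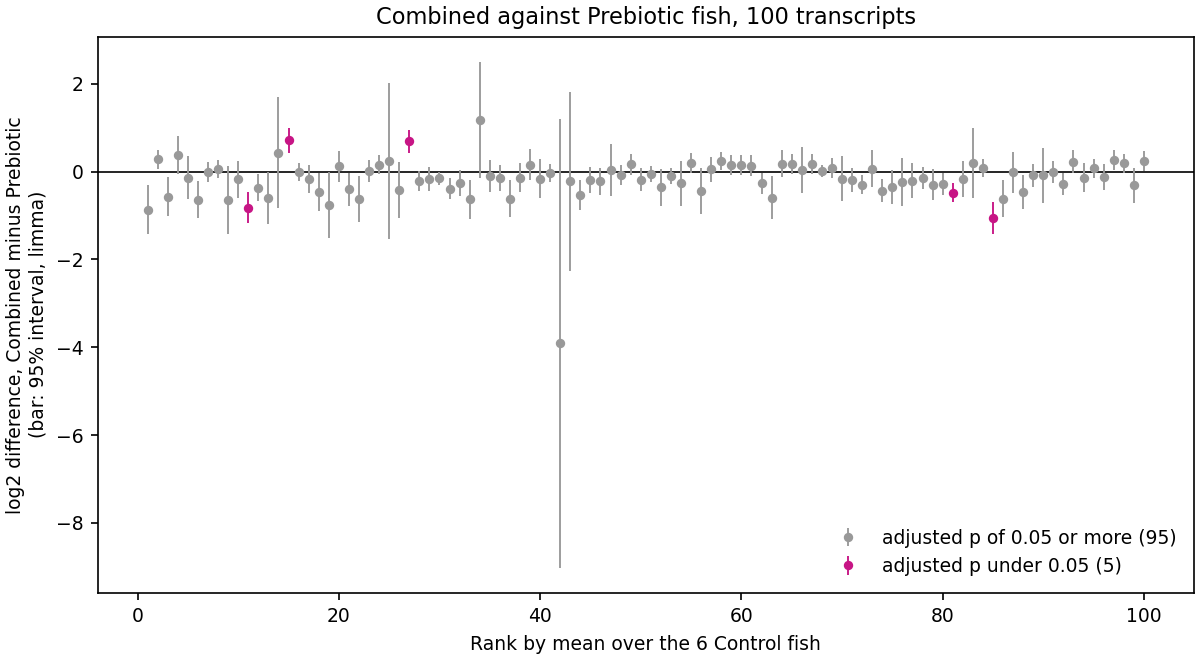
Log2 difference, Combined minus Prebiotic fish (vertical axis, with the 95% interval from limma), of each of the 100 transcripts against Control rank. The 5 coloured points, ranks 11, 15, 27, 81 and 85, have an adjusted p under 0.05 and lie between -1.06 and 0.71; the widest interval, at rank 42, runs from -9.02 to 1.19.

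Adding the prebiotic to the soyasaponin feed was tested with Combined against Soyasaponin fish. At an adjusted p under 0.05, 0 of the 100 were called by limma (background 0.0%), edgeR (0.0%) and DESeq2 (0.0411%). At an unadjusted p under 0.05 there were 5 of the 100 by limma, against 5.47% of all features. The median difference was 0.03 (log2), and for 91 of the 100 the 95% interval lay within -1 and 1. The largest differences in either direction did not pass. LABE_00010517-RA (rank 66) had 7556, 10490 and 14153 counts in Combined fish and 4142, 5091 and 8198 in Soyasaponin fish, with overlap (log2 difference 0.96, SE 0.25; limma, adjusted p = 0.636). LABE_00005599-RA (rank 13) had 10081, 16666 and 21129 counts in Combined fish and 17410, 27238 and 56967 in Soyasaponin fish with overlap (log2 difference -0.90, SE 0.29; limma, adjusted p = 0.781). This comparison shares the Combined fish with the previous one.

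Against Control fish the values are a description, because Control values chose the list, and the 3 comparisons share those fish. The median log2 difference over the 100 was 0.16 for Combined, 0.14 for Soyasaponin and 0.27 for Prebiotic fish minus Control fish. Over all features the same medians were 0.01, 0.02 and 0.03. Under quantile normalization the medians of the 100 were 0.05, 0.06 and -0.06. That scaling removes by construction a shift shared by the most abundant features, so it cannot decide the Prebiotic direction. The Prebiotic median was 0.11 with each fish scaled to its total outside the 100 and 0.04 with its own total, so its size depends on the scaling. By limma, 3 of the 100 passed for Combined (3.24% of all features), 1 for Soyasaponin (0.985%) and 5 for Prebiotic fish (1.82%). By edgeR these were 2, 1 and 0 (2.87%, 1.13% and 1.77% of all features), and by DESeq2 13, 5 and 23 (7.32%, 3.64% and 9.26% of its tested features). The limma counts also moved widely when 1 fish was left out: from 0 to 16 for Combined, 0 to 3 for Soyasaponin and 0 to 19 for Prebiotic fish. Over all 17056 features the counts moved as well, from 19 to 820, 0 to 621 and 0 to 1006. Without Control replicate 1, 2 or 3 all counts of the 100 were 0, against at most 1.55%, 0.446% and 0.416% of all features. Without Control replicate 4 they were 1, 0 and 19 (1.89%, 0.481% and 3.78% of all features). Without Control replicate 5 they were 16, 3 and 0 (4.81%, 1.13% and 0.129%). Without Prebiotic replicate 5 the Prebiotic count was 0, for the 100 and for all 17056 features.

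Rank 13, LABE_00005599-RA, was among the 3 for Combined fish. Its Combined counts, given above, stood against 22752, 33279 and 50734 in Control fish, and it had 14224, 26401 and 41106 in Prebiotic fish. All 6 Combined fish lay below the lowest Control fish (log2 difference -1.12, SE 0.29). Without overlap, 1 of the 100 was lower in Combined than in Control fish, against 287 of the 17056 features. Since Control values chose the list, this separation is a description only. Rank 66, LABE_00010517-RA, was the single one for Soyasaponin fish (log2 difference -1.10, SE 0.25), against 7693, 9533 and 22092 counts in Control fish. In Prebiotic fish rank 66 had 5539, 11115 and 13525 counts.

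Rank 1 stood at 0.15 for Combined, -0.00354 for Soyasaponin and 1.03 for Prebiotic minus Control fish (SE 0.27), and none passed limma's test. Some wide differences from Control fish belonged to transcripts that varied within each diet. Rank 42 stood at -1.98 for Combined, -1.40 for Soyasaponin and 1.93 for Prebiotic minus Control fish, each with an SE of 2.47. Rank 25 stood at 1.32, 0.81 and 1.08 (SE 0.86), and rank 14 at 1.42, 0.81 and 0.99 (SE 0.61), for the same 3 comparisons. None of these passed limma's test. LABE_00036062-RA (rank 90) stood at -0.64, -0.56 and -0.56 (SE 0.30). It had 2888, 5440 and 6853 counts in Combined fish, 4398, 4821 and 7532 in Soyasaponin fish, 3762, 5481 and 8696 in Prebiotic fish, and 4259, 7976 and 22738 in Control fish. Its place in the list rests on Control replicate 5, the fish with 22738 counts, and its rank by diet mean was 233 in Combined, 208 in Soyasaponin and 240 in Prebiotic fish.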

How the data were processed

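Hindgut RNA of 24 fish was sequenced as stranded mRNA libraries, per the labels' protocols. The authors deposited a table of 20751 transcript features in 24 columns of normalized signal, that is, read counts scaled by 1 size factor for each library. The submitters' processing notes name cutadapt, TopHat2, featureCounts, Subread and DESeq2, and which genome build and annotation were used is not given in the sources used here. Whole reads were recovered from the values (100% of 498024 values whole within 1e-06). A chi-square statistic between the reads of each of 60 same-diet pairs was 18.1 to 86.4 times the degrees of freedom. No such pair therefore looked like the same library sequenced again. Pairs across diets were not compared, and the statistic does not bear on whether fish of a tank are independent.

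The 100 members, the alternatives and the naming rule were chosen with earlier results of these data known. Transcripts named are ranks 1 to 5, the largest called differences per comparison (in comparisons with Control or with none called, the largest), the transcript at rank 100 and the next one, and the widest and narrowest 2 by range. Differences were fitted with limma 3.58.1 (R 4.3.3, intensity trend) on log2(value + 1), for 17056 features that averaged at least 10 (all 100 members among them), all 24 fish in the fit, with Benjamini-Hochberg adjustment over all of them. edgeR 4.0.16 and DESeq2 1.42.0 on the recovered reads were alternatives. On simulated reads limma recovered 53% of 100 features changed by 1 on the log2 scale and 91% of 100 changed by 2, for Combined against Prebiotic fish. The changed features were drawn at random from all 17056, so these rates do not describe the 100 most abundant transcripts. Shares were computed in Python 3.11.15 and tested by exact permutation (scipy 1.17.1). Recovered reads over the 20751 features were 8.42 M to 12.5 M per fish, and the labels give 14.2 M ± 1.4 reads per library.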

Additional observations from a re-analysis of the deposited data

Results flagged for a closer look

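Of 96 groups of 6 fish that were checked, 8 held a fish whose gap to its nearest neighbour took up an unusually large part of the group's range. In independent groups of normally distributed values, chance would flag about 1 in 20. These groups are not independent, since many of the 100 vary together. The list was also chosen on Control means, so a single high Control fish can bring a transcript into it. No excess of flags is therefore read from the count. Control replicate 5 accounted for 5 of the 8. It was the highest Control fish for LABE_00049735-RA (rank 2, 151224 normalized counts against 100472 to 119016 in the other Control fish) and for LABE_00038649-RA (rank 15, 49631 against 27378 to 31717). It was also the highest for LABE_00050764-RA (rank 27, 28896 against 17892 to 21539), for LABE_00036062-RA (rank 90, 22738 against 4259 to 9064) and for LABE_00001223-RA (rank 100, 12250 against 7206 to 8784). In the same fish the 100 transcripts held 22.7% of the counts, the lowest share of 24 fish, and the Spearman correlation of its order with the Control order over the 100 was 0.698, the lowest of 24.

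Prebiotic replicate 5 had 117176 normalized counts of LABE_00047846-RA (rank 42), against 50.7 to 42519 in the other Prebiotic fish. The own top 10 of Combined replicate 2 held 9.87% of its counts, against 10.6% to 11.0% in the other Combined fish. The own top 500 of Control replicate 4 held 49.6%, against 45.2% to 46.8% in the other Control fish.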

How the results depend on the processing

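For Combined against Prebiotic fish, the 5 of 100 transcripts called (3.81% of all features) became 8 with a mean of at least 50 (5.93%), 15 by DESeq2 (7.56%), 9 with the 18 fish that did not choose the list (3.42%), 10 with the 12 fish compared alone (2.88%) and 12 at an adjusted p under 0.1 (7.09%). They became 9 without Prebiotic replicates 4 and 5 (1.75%) and 9 with each fish scaled to its own total (8.22%). Of the 200 most abundant 9 were called and of the 50 most abundant 3, beside the same 3.81% of all features. Leaving out 1 fish gave 5 to 10 of the 100, beside 1.56% to 4.58% of all features. The count was 8 without Control replicate 4 (3.83%), 10 without Control replicate 5 (4.58%) and 5 without Combined replicate 2 (1.56%). Over 38 alternatives each of the 5 kept its direction, and calls were lost only under quantile normalization, for rank 81 (LABE_00037945-RA, -0.31, adjusted p = 0.136) and rank 11 (LABE_00040711-RA, -0.58, adjusted p = 0.0523); the cause was not tested. Without 1 fish their adjusted p ranged from 0.00795 to 0.0362 for rank 81 and from 0.00585 to 0.0334 for rank 11. For Combined against Soyasaponin fish, 0 were called under all 42 alternatives.

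The 50 most abundant held 20.5% in Combined, 20.1% in Soyasaponin, 23.1% in Prebiotic and 19.9% in Control fish, and the 200 most abundant 34.6%, 33.9%, 36.8% and 33.6%. Without 1 fish the mean share of the 100 ran from 26.6% to 27.1% in Combined, 25.8% to 26.8% in Soyasaponin, 28.8% to 29.9% in Prebiotic and 25.4% to 26.8% in Control fish. For the own top 100, leaving out 1 fish gave -3.73 to -2.79 points for Combined against Prebiotic fish and 3.33 to 4.56 for Prebiotic against Control fish. The same gave 0.0923 to 1.02 for Combined against Soyasaponin and 0.112 to 1.34 for Combined against Control fish. Without Prebiotic replicates 4 and 5 these were -3.78 for Combined against Prebiotic and 4.46 for Prebiotic against Control fish (adjusted p = 0.0571 each, exact permutation). Soyasaponin against Control fish changed sign with 10 features (-0.260) and ranged from -0.483 to 0.749 without 1 fish.

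No paired analysis was possible because the replicate numbers only follow the order of the records and no label ties a fish on one diet to a fish on another. Depth limits few of these values: the lowest count of reads of any of the 100 in any fish was 11, for rank 42.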

Other observations

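On the other diets 24 features outside the list entered the 100 highest means, 7 of them on at least 2 diets, and 16 of them came from the 50 places just below the list in Control fish. All transcripts named in this paragraph were chosen after their values were seen. In Prebiotic fish 14 features entered, and 7 of these ranged over more than 100-fold between the 24 fish. Of those 7, 5 correlated with rank 42 (LABE_00047846-RA) at r over 0.9 across 24 fish, and the lowest correlation of the 7 was -0.212. LABE_00039922-RA, at Control rank 102, averaged 19994 normalized counts in Prebiotic fish (38.5 to 68696) and 8580 in Control fish (28.3 to 29869). LABE_00015370-RA was at rank 68 by its Prebiotic mean (2.04 to 37787 counts) and at rank 1259 in Control fish (23.1 to 4752 counts). LABE_00057800-RA was at rank 90 in Prebiotic fish (6.11 to 28574 counts) and at rank 1579 in Control fish (14.0 to 3771 counts). In each of the 3, the lowest Prebiotic fish lay under the highest Control fish, so the groups overlapped.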
